A study of Rattus norvegicus with 46 samples.

Results

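An aortocaval shunt is an opening between the abdominal aorta and the vena cava, and the left ventricle behind it must pump the blood that runs back through the opening as well as the blood that the body needs. The samples described here are the 8 arrays of this experiment, out of 46 arrays in the series, and were chosen by their labels alone. All came from the left ventricle of male Wistar rats. In the shunt groups a needle was pushed from the aorta, below the left renal artery, into the vein and the aortic hole was closed with glue, and the ventricles were taken 3 or 8 weeks later (2 arrays at each time). Sham rats had the operation without the puncture and gave 2 arrays at each time. Every array held RNA pooled from several rats, so the p-values below rest on how far pools differed, and say nothing of how far single rats did. Within a time point the shunt arrays are called replicates 1 and 2 and the sham arrays replicates 3 and 4.

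A ventricle that takes up too much blood at each beat is stretched in diastole and grows by lengthening its muscle cells, so that the cavity widens with little thickening of the wall. This eccentric growth differs from the concentric growth that follows a narrowed aorta, where the load comes in systole. Stretched heart muscle releases the natriuretic peptides ANP and BNP, which make the kidney excrete salt and water and relax vessels, and ventricular muscle under load turns genes of the fetal heart back on, among them Nppa and the skeletal actin gene Acta1.

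The values are the deposited intensities of 8740 probe sets, where a probe set is the group of short probes on the chip that reads 1 transcript. They were put on the log2 scale, on which a difference of 1 is a doubling. An effect is the shunt level minus the sham level on that scale, given ± its standard error, with week as a block when both weeks enter. A probe set was called when its p-value from limma, adjusted by the Benjamini-Hochberg method over all 8740, was under 0.05. A gene was also counted as separated when, in each week, both shunt arrays lay above both sham arrays, or both below, in the same direction in both weeks. Leaving out an array removes a condition from this rule and so can only add separated genes: without replicate 2 of the 3-week shunt, an array described below, the share of all genes was 8.49% upward and 5.53% downward, against 5.76% and 4.01% with all 8 arrays. For the counts each of the 4736 genes with a symbol is represented by its brightest probe set.

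The summed intensity of 10 cardiomyocyte markers ranged from 240862 to 407021 over the 8 arrays, but heart chambers share these genes, so they check the label only as far as heart muscle. The upper end of the scale differed between arrays. The largest log2 value was 15.10 and 15.37 on the 3-week shunt arrays against 15.96 and 15.66 on their shams, and 15.08 and 14.93 at 8 weeks against 15.01 and 15.20. Actc1, Tnni3 and Tpm1, of cardiac actin, troponin I and tropomyosin, were among 7 probe sets that lay within 0.1 log2 of their array's maximum on all 8 arrays, so no shunt effect can be read from them. The 100 probe sets with a mean log2 level of 14.5 or more had a median effect of -0.34 at 3 weeks and -0.10 at 8 weeks, with 95 of them lower in the shunt arrays at 3 weeks, and after quantile normalization, which gives all arrays one distribution, their median over both weeks was -0.00156. Several effects of genes this bright are therefore given with both scales, while that of Ankrd1 is given only as deposited. Replicate 2 of the 3-week shunt also stood apart. It correlated with the other arrays at 0.966 to 0.974, while each of the other 7 had a median correlation between 0.984 and 0.990, and it differed from replicate 1 by more than 1 log2 at 273 probe sets, against 81 in the 3-week sham pair, 52 in the 8-week shunt pair and 43 in the 8-week sham pair.

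Nppa, the gene of ANP, rose in the shunt ventricles at both times. All 4 of its probe sets were called, by 1.66, 1.56, 1.42 and 1.32 log2, or 3.16-fold, 2.94-fold, 2.68-fold and 2.50-fold. Only 5 of 8740 probe sets were called with both weeks together (0.0572%), all of them higher, and the fifth belongs to Bgn, a small proteoglycan of the matrix. At an unadjusted p under 0.05 there were 750 probe sets (8.58%), of which 432 (4.94%) were higher and 318 (3.64%) lower.

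The promoters of the 3 genes of the fetal program on which most of the account below turns are shown first. Each holds 250 bases before and 50 bases after the transcription start in RefSeq's rat assembly GRCr8, read 5′ to 3′ on the gene's own strand. Nppa lies at chr5:163711934-163712233 on the plus strand, its neighbour Nppb at chr5:163699758-163700057 on the plus strand, and Acta1 at chr19:68784145-68784444 on the minus strand. Capitals mark matches, on either strand, to the TATA box TATAAA, the GATA factor motif GATAA, the MCAT motif CATTCC and the CArG box that serum response factor binds.
Nppa: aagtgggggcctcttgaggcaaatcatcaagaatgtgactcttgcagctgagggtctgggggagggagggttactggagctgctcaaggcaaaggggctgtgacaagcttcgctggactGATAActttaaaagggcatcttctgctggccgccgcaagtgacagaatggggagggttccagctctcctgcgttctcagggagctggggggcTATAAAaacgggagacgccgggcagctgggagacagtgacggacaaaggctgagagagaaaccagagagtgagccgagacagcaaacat
Nppb: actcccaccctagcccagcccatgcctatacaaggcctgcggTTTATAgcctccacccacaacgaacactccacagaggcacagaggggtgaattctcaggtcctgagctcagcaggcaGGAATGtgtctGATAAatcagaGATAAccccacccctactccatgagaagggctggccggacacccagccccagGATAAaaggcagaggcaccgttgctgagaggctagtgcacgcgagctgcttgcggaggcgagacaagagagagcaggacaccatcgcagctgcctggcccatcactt
Acta1: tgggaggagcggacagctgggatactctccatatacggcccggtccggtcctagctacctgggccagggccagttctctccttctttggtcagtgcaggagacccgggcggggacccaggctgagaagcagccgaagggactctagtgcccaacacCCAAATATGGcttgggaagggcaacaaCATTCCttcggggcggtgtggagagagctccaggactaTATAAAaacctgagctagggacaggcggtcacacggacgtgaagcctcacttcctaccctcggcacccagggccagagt
Nppa holds 1 TATA box and 1 GATA motif. Nppb holds 3 GATA motifs and, on the other strand, 1 TATA box and 1 MCAT motif. Acta1 holds 1 TATA box, 1 MCAT motif and 1 CArG box. Among 33469 rat promoters of the same length, 14.2% held the TATA box, 26.5% the GATA motif, 14.2% the MCAT motif and 1.64% the CArG box. A match is a string of letters and not a shown binding site. The table gave no entry for Bgn.

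For Nppa the probe set with the largest effect read 14.07 and 14.08 log2 in the 3-week shunt arrays and 12.63 and 12.49 in their shams, then 14.41 and 14.32 in the 8-week shunt arrays and 12.46 and 12.66 in theirs. The 4 shunt arrays lay more than 1 log2 above the 4 sham arrays and the groups did not overlap in either week. The effect was 1.66 ± 0.0902 (limma adjusted p = 0.000324), with 1.51 at 3 weeks (adjusted p = 0.0148) and 1.81 at 8 weeks (adjusted p = 0.00526). The gain from 3 to 8 weeks, 0.30 with a 95% interval from -0.07 to 0.66, did not pass the test (adjusted p = 0.891). The brightest of its probe sets gave 13.98 and 14.32 against 12.99 and 12.85 at 3 weeks, and 14.38 and 14.30 against 12.78 and 13.08 at 8 weeks. This was 1.32 ± 0.106 (adjusted p = 0.0046). The other 2 gave 1.56 ± 0.0839 (adjusted p = 0.000324) and 1.42 ± 0.123 (adjusted p = 0.00595). Taken alone, each week had 2 calls among 8740 probe sets (0.0229%), and both were Nppa. The calls at 1.42 and at 1.32 were lost without replicate 4 of the 3-week sham (adjusted p = 0.0514 for each), and that at 1.42 also without replicate 2 of the 8-week shunt (0.0505). The calls of the other 2 Nppa probe sets over both weeks were kept whichever array was left out (adjusted p from 0.000924 to 0.00543). Within a single week the calls were less firm. Both 3-week calls were kept only when replicate 1 of the 3-week shunt was the array left out (adjusted p from 0.0568 to 0.104 without any of the other 7), and were lost with array weights and with the spread of all 46 arrays. The 8-week calls were lost without replicate 1 of the 8-week shunt (adjusted p = 0.128 for each), and 1 of them without replicate 4 of the 8-week sham (0.052). The effects themselves stayed between 1.34 and 1.58 at 3 weeks and between 1.60 and 1.91 at 8 weeks.

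Nppb, the gene of BNP, read 13.84 and 13.96 in the 3-week shunt arrays against 13.12 and 13.26, and 14.16 and 14.01 in the 8-week shunt arrays against 13.58 and 13.62. All 4 shunt arrays lay above all 4 shams. The effect of 0.60 ± 0.081, or 1.51-fold, missed the threshold (limma adjusted p = 0.0976). Of the alternatives that kept all 8 arrays, it passed only when limma's prior was allowed to follow the level (adjusted p = 0.0192). With the spread of all 46 arrays the adjusted p was 0.381. The effect was 0.54 to 0.65 with 1 array left out. Across the natriuretic peptide system 8 genes were measured. Besides Nppa and Nppb, Furin, a protease of the secretory pathway that cleaves the BNP precursor, was separated at 0.07 ± 0.0672. Nppc, of the C-type peptide, was at 0.09, and the receptors Npr1, Npr2 and Npr3 were at 0.08, -0.03 and 0.14. Without replicate 2 of the 3-week shunt Furin was at 0.04, and Nppc and Npr2 took the other sign (-0.01 and 0.08). Thus 3 of the 8 were separated upward, against 5.76% of all 4736 genes, and none downward, against 4.01%. The median effect of the 8 was 0.08, and that of all genes was 0.00.

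**Figure D1:**
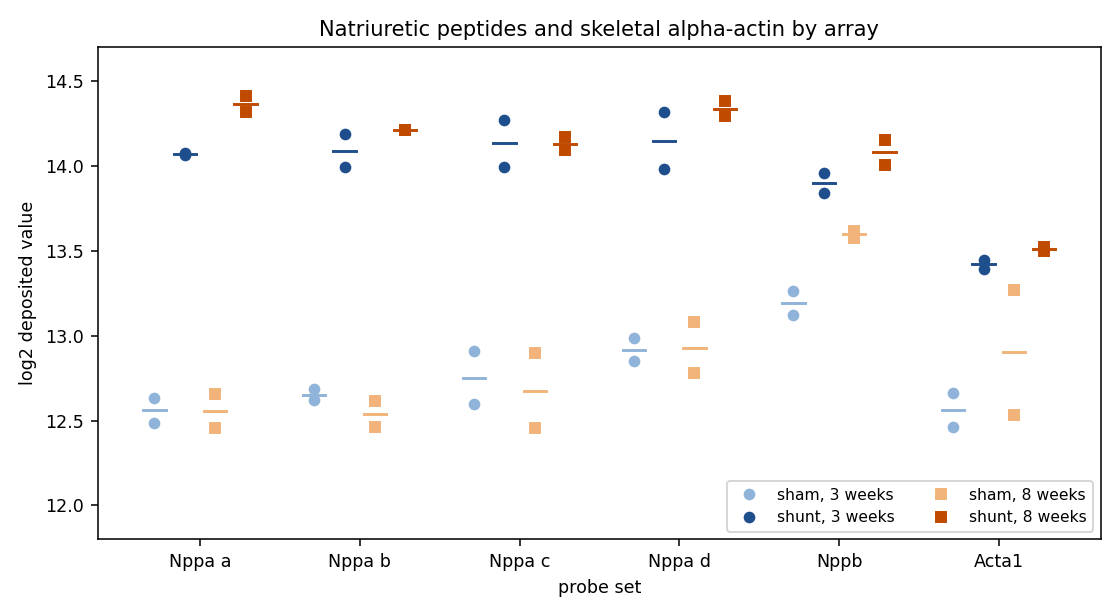
Deposited value (log2, vertical) on each of the 8 arrays for the 4 probe sets of Nppa (a to d in order of falling effect, d being the brightest), for Nppb and for Acta1, with each point 1 pooled RNA sample and each short bar the mean of a pair. The shunt points lie above the sham points of the same week for every probe set, with 1 sham array at 8 weeks close below the shunts for Acta1 (13.27 against 13.50 and 13.52).

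Acta1 was separated without being called. It read 13.40 and 13.45 in the 3-week shunt arrays against 12.46 and 12.66, and 13.50 and 13.52 at 8 weeks against 12.53 and 13.27. The 2 sham arrays at 8 weeks were further apart than the nearer of them was from the shunts. The effect was 0.73 ± 0.154, or 1.66-fold (limma adjusted p = 0.322). With 1 array left out it was lowest, at 0.61, without the dimmer 8-week sham array. It was highest, at 0.91, without the brighter one. Ckb, the brain form of creatine kinase, gave 12.52 and 12.95 against 12.02 and 12.30 at 3 weeks and 12.53 and 12.62 against 11.98 and 12.30 at 8 weeks, an effect of 0.50 ± 0.124 (adjusted p = 0.382). Of 20 fetal and hypertrophy marker genes, 5 were separated upward (25%) and none downward, against 5.76% and 4.01% of all genes. The 5 were Nppa, Nppb, Acta1, Ckb and the stretch-responsive ankyrin protein Ankrd1 at 0.18. The median of the 20 was 0.02 (0.01 to 0.04 with 1 array left out). The list therefore held a few displaced genes around a centre that was close to that of all genes.

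The myosin heavy chains, whose switch from the fast alpha form Myh6 to the slow beta form Myh7 is a classical sign of loaded rat heart, gave no called effect. The brightest Myh6 probe set was at -0.24 ± 0.104 and at -0.000966 after quantile normalization. Of the probe sets of Myh7 the brightest was at -0.21 ± 0.106 and at 0.03 after quantile normalization, so its direction rested on the scaling. The other read 13.71 and 13.87 in the 3-week shunt arrays against 13.16 and 13.83, and 14.37 and 14.03 at 8 weeks against 13.18 and 13.50. That is 0.58 ± 0.187 (adjusted p = 0.555). Its groups overlapped at 3 weeks and not at 8 weeks. The bright probe sets of Myh6 and Myh7 carry probes shared among family members, so their assignment is uncertain. Atp2a2, the calcium pump of the sarcoplasmic reticulum, was at -0.32 ± 0.122 on its brightest probe set and -0.00345 after quantile normalization, and its other 3 probe sets were at -0.02, 0.14 and -0.05. The 25 genes of the sarcomere and Z-disc had 3 separated upward (Acta1, Ankrd1 and the LIM protein Pdlim1) and 3 downward (Tcap, Fhl2 and Actn2). Of all genes 5.76% were upward and 4.01% downward. The median of the 25 was -0.11 (-0.17 without replicate 4 of the 3-week sham). After quantile normalization it was 0.00, with 4 upward and 1 downward, where 4.98% and 4.88% of all genes were. ANP is an atrial product in the normal heart, and the other atrial markers, the light chains Myl7 and Myl4, were at -0.22 and 0.14.

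Genes of the extracellular matrix, the fibrous scaffold that fibroblasts lay down between muscle cells, were separated upward in 3 lists. Of 31 genes of collagens and fibrillar matrix 8 were separated upward, of 11 matricellular genes 4 and of 32 matrix proteases and their inhibitors 7, with none downward in any of the 3 lists. Against the 5.76% and 4.01% of all genes these are 25.8%, 36.4% and 21.9% upward. The medians were small, 0.09, 0.12 and 0.07, and moved with single arrays. That of the collagens was 0.05 without replicate 1 of the 3-week shunt or replicate 3 of its sham and 0.14 without replicate 1 of the 8-week shunt, that of the matricellular genes 0.26 without replicate 2 of the 8-week shunt and 0.19 without replicate 3 of its sham, and that of the proteases 0.04 without replicate 1 of the 3-week shunt. After quantile normalization the upward counts were 7, 5 and 6, where 4.98% of all genes were upward and 4.88% downward, and the proteases then had 2 downward. Without replicate 2 of the 3-week shunt the proteases had 11 upward and 1 downward, and the other lists 9 and 5 upward, where 8.49% of all genes were upward and 5.53% downward. None of these genes was called by its brightest probe set.

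Bgn, whose proteoglycan biglycan binds collagen fibres, gave unequal answers from its 2 probe sets. The called one read 12.13 and 11.95 in the 3-week shunt arrays against 11.01 and 11.11, and 11.91 and 11.92 at 8 weeks against 11.24 and 11.32. All 4 shunt arrays were above all 4 shams by more than 0.5 log2, and the effect was 0.81 ± 0.0913, or 1.75-fold (adjusted p = 0.0355). The brighter one read 12.14 and 12.06 against 11.86 and 11.91, and 12.04 and 12.06 against 11.66 and 11.83, an effect of 0.26 ± 0.0685 (adjusted p = 0.434). Both were separated, and they disagree on the size. The call of the first was lost in each of the 8 fits that leave out 1 array (adjusted p from 0.0665 to 0.169) and when the spread was taken from all 46 arrays (0.28).

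Spp1, of osteopontin, a secreted phosphoprotein of injured tissue, read 8.83 and 7.72 at 3 weeks against 7.16 and 7.63, and 8.60 and 8.76 at 8 weeks against 7.93 and 7.58. Its effect of 0.90 ± 0.230 was the largest of the matrix genes and missed the threshold (adjusted p = 0.409), and replicate 2 of the 3-week shunt barely cleared its shams. Postn, of periostin, read 8.01 and 7.04 against 6.79 and 7.15 at 3 weeks and 7.66 and 8.03 against 7.13 and 6.92 at 8 weeks. Here the same replicate lay between the shams, so Postn, at 0.69 ± 0.212, was not separated. The next genes had tighter pairs. Loxl1, an oxidase that crosslinks elastin, was at 11.74 and 11.59 against 11.15 and 10.96, then 11.45 and 11.45 against 11.11 and 11.24, an effect of 0.44 ± 0.0951. Timp2, an inhibitor of matrix metalloproteinases, was at 12.82 and 12.84 against 12.37 and 12.40, then 12.68 and 12.72 against 12.50 and 12.41, an effect of 0.34 ± 0.0696. Both were nearer to their shams at 8 weeks than at 3 weeks (0.61 and 0.27 for Loxl1, 0.44 and 0.24 for Timp2). Fstl1, a secreted glycoprotein, was at 0.42 ± 0.0949, and fibronectin (Fn1) at 0.35 ± 0.133. The lysosomal proteases Ctss, Ctsl and Ctsb were at 0.39, 0.23 and 0.21, and the metalloproteinase inhibitor Timp1 at 0.12 on its brightest probe set and 0.41 on the other.

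The fibrillar collagens varied by gene and by probe set. Col3a1, of type III collagen, read 13.13 and 13.22 against 12.54 and 12.92 at 3 weeks and 12.65 and 12.54 against 12.19 and 12.49 at 8 weeks, an effect of 0.35 ± 0.111. Col1a2 was at 0.23 and Col5a1 at 0.27, both separated. Col1a1, of the type I chain, read 13.04 and 12.94 against 12.26 and 12.29 at 3 weeks, and 12.56 and 12.49 against 12.55 and 12.75 at 8 weeks. The effect was 0.71 at 3 weeks and -0.13 at 8 weeks, and the difference of -0.84 between them had an unadjusted p of 0.000762 by limma but an adjusted p of 0.737. Its other 3 probe sets had differences between the weeks of 0.33, -0.14 and -0.04. Sparc, a collagen-binding protein, was at -0.30 on its brightest probe set, which lies at the upper end of the scale (-0.06 after quantile normalization), and at 0.65, 0.56 and 0.51 on the other 3, none of them called.

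**Figure D2:**
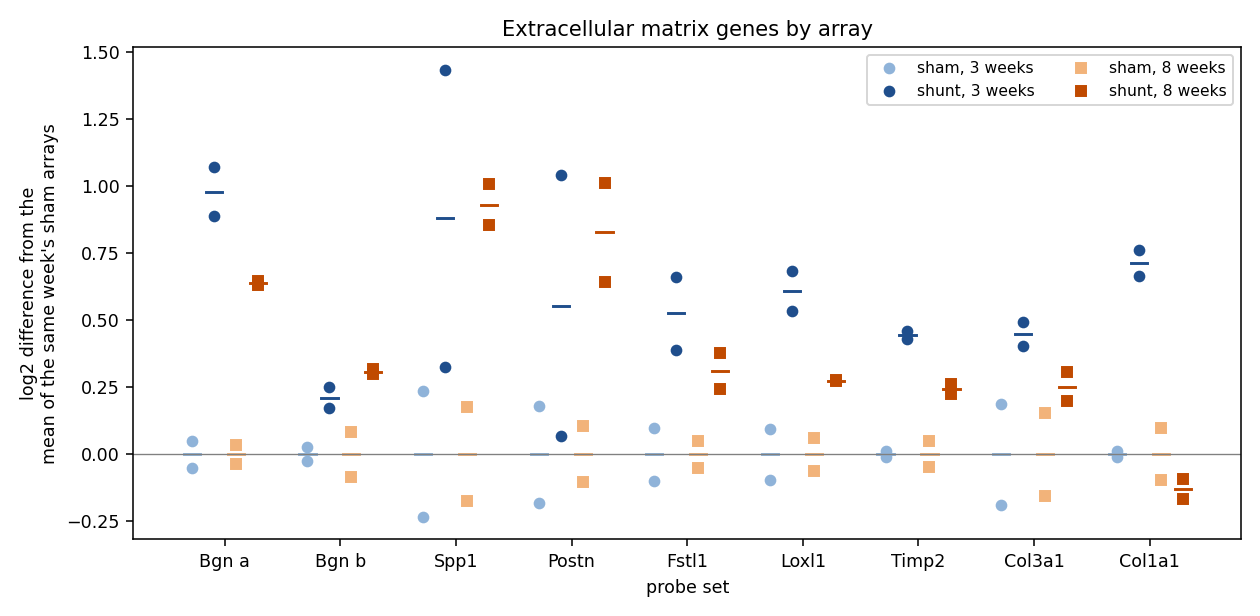
Log2 difference of each of the 8 arrays from the mean of the same week's sham arrays (vertical) for 9 probe sets of matrix genes, with each point 1 pooled RNA sample and each short bar the mean of a pair (Bgn a is the called probe set and Bgn b the brighter one). Shunt points lie above the sham points of the same week for all but Postn, where 1 shunt array at 3 weeks lies between the shams, and Col1a1, where the 8-week effect is -0.13 and the groups overlap.

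In whole tissue, fewer cells of a type and less RNA per cell cannot be told apart, and this holds for more of either as well. Macrophage markers were also separated upward in part. Lyz2, of lysozyme, read 12.41 and 12.19 in the 3-week shunt arrays against 11.17 and 11.55, and 12.30 and 12.03 at 8 weeks against 11.49 and 11.77, an effect of 0.74 ± 0.137 (adjusted p = 0.308). C1qb, of complement C1q, was at 0.38 ± 0.127. These were the 2 separated genes of 5 (40%, against 5.76% of all genes upward), all 5 effects were above 0 and none was called. After quantile normalization 1 of the 5 was separated upward, where 4.98% of all genes were. The median of the 5 was 0.21, and 0.09 to 0.30 with 1 array left out. The summed intensity of the 5 ranged from 13181 to 14172 in the 3-week shunt arrays against 10142 to 10476, and from 13132 to 14081 at 8 weeks against 11324 to 11607, with no overlap in either week. This sum includes Lyz2 and was not computed without it, so it is not a separate observation. Of 5 endothelial markers, Pecam1 (0.36) and Cav1 (0.15) were separated upward, of 9 fibroblast markers Col1a2 and Col3a1 (4 without replicate 2 of the 3-week shunt, where 8.49% of all genes were upward), of 8 Schwann cell and neuron markers Gap43 and Pmp22, of 7 smooth muscle markers Myl9 and of 5 adipocyte markers Ucp1. No gene was separated among 12 mast cell, 10 lymphocyte, 4 neutrophil or 5 erythrocyte markers. After quantile normalization no adipocyte marker, 1 cardiomyocyte marker and 3 fibroblast markers were separated upward. The sum over the endothelial markers ranged from 11241 to 11499 against 9626 to 10442 at 3 weeks and from 10027 to 10413 against 9417 to 9419 at 8 weeks. That of the fibroblast markers did not overlap at 3 weeks (65121 to 65881 against 58297 to 59969) and did at 8 weeks (53157 to 54227 against 50556 to 57778). The 10 cardiomyocyte markers had a median of -0.24 and none was separated. After quantile normalization that median was 0.01, since most of these genes lie at the upper end of the scale. The part of cell composition in the effects of the matrix genes was not tested.

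Genes of inflammation and of membrane repair were separated upward in part, where the shares of all genes were 5.76% upward and 4.01% downward. Of 14 annexin and S100 genes 3 were separated upward, Anxa2 (0.45 ± 0.079), Anxa5 (0.36 ± 0.12) and Anxa1 (0.35 ± 0.091), all calcium-dependent membrane-binding proteins, and 1 downward, Anxa7 (-0.19), and 5 were upward without replicate 2 of the 3-week shunt, where 8.49% of all genes were. Anxa2 read 12.20 and 12.21 against 11.60 and 11.66 at 3 weeks and 12.15 and 12.05 against 11.74 and 11.84 at 8 weeks. Of 45 cytokine, chemokine and lectin genes 7 were separated upward, with Lgals1 and Lgals3, of galectins 1 and 3, at 0.38 and 0.33, and 1 downward, Il1a, at -0.28. The 24 genes of complement and coagulation had 2 upward (8.33%, near the share of all genes) and a median of 0.01 (-0.02 to 0.06 with 1 array left out).

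Cell cycle genes had 8 of 34 separated upward (23.5%) and 1 downward (2.94%), against 5.76% and 4.01% of all genes. Their median of 0.10 was 0.06 without replicate 2 of the 3-week shunt and 0.05 without replicate 3 of its sham. Cdk1, the kinase that drives entry into mitosis, read 8.75 and 8.89 in the 3-week shunt arrays against 8.05 and 8.14, and 8.78 and 8.61 at 8 weeks against 8.34 and 8.05. All 4 shunt arrays were above all 4 shams, and the effect of 0.61 ± 0.0966 was not called (adjusted p = 0.193). Cyclin genes Ccnd1 and Ccnb1 were at 0.28 and 0.22, but inhibitors of the cycle were also among the 8, Cdkn1b at 0.47 (0.26 without replicate 2 of the 3-week shunt), Cdkn1a at 0.13 and Cdkn1c at 0.11. Aurkb, a mitotic kinase, was separated downward at -0.16. After quantile normalization the counts were 5 upward and 2 downward, where 4.98% of all genes were upward and 4.88% downward.

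Genes of stress defence were also separated upward in part. Of 35 genes of oxidative stress and glutathione 8 were separated upward (22.9%) and none downward, as on the quantile scale. Of all genes 5.76% were upward and 4.01% downward, and 4.98% and 4.88% on the quantile scale. The median of the 35 was 0.05, from -0.02 to 0.08 with 1 array left out. Gpx3, of the secreted glutathione peroxidase, read 13.76 and 13.71 against 13.09 and 13.37 at 3 weeks and 13.72 and 13.75 against 13.23 and 13.12 at 8 weeks, an effect of 0.53 ± 0.0784 (adjusted p = 0.15). Its second probe set was at 0.58 ± 0.106. Sod3, the extracellular superoxide dismutase, was at 0.34 ± 0.0926 and Cat, of catalase, at 0.19. Chaperones and ER stress genes had 8 of 36 separated upward and none downward (7 and 1 after quantile normalization), with a median of 0.09 (0.06 without replicate 3 of the 3-week sham). Hspb1, of the small heat shock protein 27, read 14.01 and 13.93 against 13.10 and 13.46 at 3 weeks and 13.76 and 13.91 against 13.60 and 13.43 at 8 weeks, or 0.50 ± 0.115 (adjusted p = 0.348). The inducible Hspa1a was at 0.29 and the extracellular chaperone clusterin (Clu) at 0.22.

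Separated genes of energy metabolism were mostly lower in the shunt. Of 43 genes of fatty acid uptake and oxidation 9 were separated downward and 1 upward, or 20.9% and 2.33% against 4.01% and 5.76% of all genes, and the median was -0.10, or -0.06 without replicate 2 of the 3-week shunt. Single effects were small and none was called. The trifunctional protein subunit Hadhb was at -0.28 ± 0.0821, the isomerases Eci1 and Ech1 at -0.24 each, and the acyl-CoA dehydrogenases Acadm and Acadvl at -0.23 and -0.19. Esrra, a nuclear receptor that drives genes of this pathway, was also separated downward, at -0.28 ± 0.0948 (adjusted p = 0.563). The list also had 9 downward after quantile normalization. Without replicate 2 of the 3-week shunt it had 9 downward and 3 upward, where 5.53% of all genes were downward and 8.49% upward.

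Oxidative phosphorylation had 10 of 49 genes separated downward (20.4%) and none upward, against 4.01% and 5.76% of all genes. The median was -0.06, with -0.00 at 3 weeks and -0.12 at 8 weeks, and -0.10 over both weeks without replicate 4 of the 3-week sham. Several of these genes lie at the bright end. Atp5f1e, of an ATP synthase subunit, was at -0.32 ± 0.0878 on the deposited scale and -0.12 after quantile normalization, and the phosphate carrier Slc25a3 was at -0.20 and -0.00. Cox7b and Cox4i2, of cytochrome oxidase, moved little between the scales, from -0.25 to -0.22 and from -0.20 to -0.21. The quantile scale left 8 of the 49 downward, where 4.88% of all genes were, and a median of -0.03. In the citrate cycle and pyruvate oxidation 2 of 26 were separated in each direction (5 downward after quantile normalization), and in glucose transport, glycolysis and glycogen 4 of 34 were upward (2 after quantile normalization), led by Gpd2 at 0.20.

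**Figure D3:**
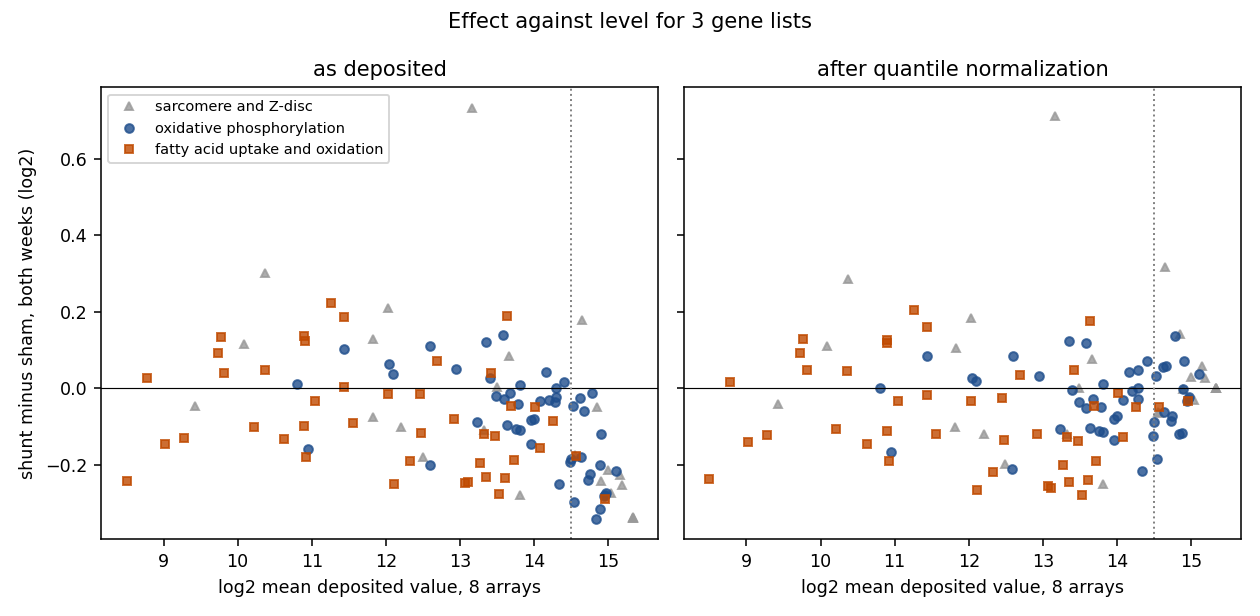
Shunt effect over both weeks (log2, vertical) against the log2 of the mean deposited value over the 8 arrays (horizontal) for the genes of 3 lists, as deposited (left) and after quantile normalization (right), with a dotted line at a level of 14.5. The sarcomere and respiratory chain genes right of the line lie below 0 as deposited, except Ankrd1 at 0.18, and around 0 after quantile normalization, while the median of the fatty acid list is -0.10 on the left and -0.11 on the right.

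**Figure D4:**
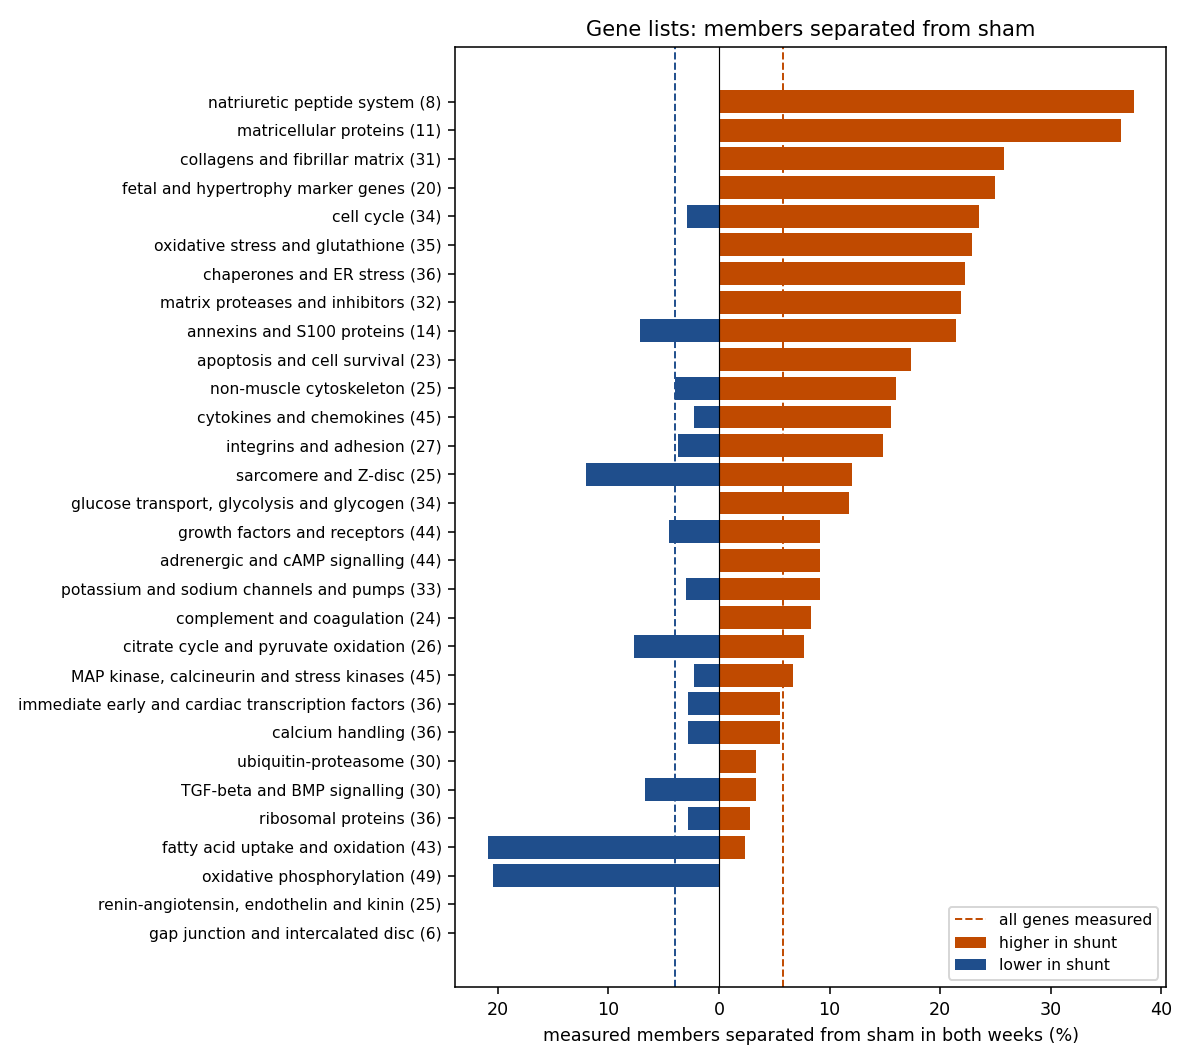
For each of 30 pathway lists (cell type markers are not drawn), the percentage of measured genes separated upward and downward in both weeks, with the share over all 4736 genes (5.76% upward and 4.01% downward) drawn for reference. The share exceeds that of all genes upward in 21 lists, with the natriuretic (8 genes) and matricellular (11 genes) lists at the top, and downward in 7, the fatty acid and oxidative phosphorylation lists reaching furthest (20.9% and 20.4%) and the sarcomere list 12.0% in both directions.

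Signalling genes were mostly close to their shams. None of the 25 genes of the renin-angiotensin, endothelin and kinin systems was separated, and their median was 0.01 (0.01 to 0.04 with 1 array left out). On the quantile scale 2 were upward, and without replicate 2 of the 3-week shunt 2 were upward and 1 downward. Among them Edn1, of endothelin-1, was at 0.33 (95% interval -0.28 to 0.93, and 0.00534 without that array), the angiotensin receptor Agtr1a at -0.14 (-0.38 to 0.11) and the converting enzyme Ace at -0.13 (-0.37 to 0.12), so that effects of moderate size in either direction were not resolved by 4 arrays a side. In the adrenergic and cAMP list 4 of 44 were upward (9.09% against 5.76% of all genes), led by Maoa, which breaks down catecholamines, at 0.37 ± 0.0985, and without the same array 8 were upward and 2 downward, where 8.49% and 5.53% of all genes were. Growth factors and receptors had 4 of 44 upward, Fgf7, Pdgfb, Nrg1 and Igf2r at 0.34, 0.31, 0.31 and 0.26, and 2 downward, Egf and Fgfr2 at -0.25 and -0.11, of which Pdgfb and Nrg1 were at 0.19 each, Egf at -0.16 and Fgfr2 at -0.07 without replicate 2 of the 3-week shunt. Integrins and adhesion had 4 of 27 upward with Itgb1 at 0.23, and Itga7, of the laminin receptor of muscle, downward at -0.33 ± 0.091. TGF-beta and BMP signalling had 1 upward and 2 downward of 30, calcium handling 2 and 1 of 36, channels and pumps 3 and 1 of 33, kinases of the MAP kinase and calcineurin pathways 3 and 1 of 45, and transcription factors 2 and 1 of 36. Of all genes 5.76% were upward and 4.01% downward. Without replicate 2 of the 3-week shunt the upward counts were 3 for TGF-beta and BMP signalling, 4 for calcium handling and 5 for channels and pumps. The same omission raised the share of all genes upward to 8.49%. After quantile normalization none was upward in calcium handling and none downward in TGF-beta and BMP signalling, where 4.98% of all genes were upward and 4.88% downward. The non-muscle cytoskeleton had 4 upward and 1 downward of 25 (7 and 1 after quantile normalization), apoptosis and cell survival 4 and none of 23, ribosomal proteins 1 and 1 of 36, ubiquitin and proteasome genes 1 and none of 30, and none of 6 gap junction genes was separated.

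Over all genes with a mean intensity of at least 100, the separated genes with the largest positive effects were Nppa, Spp1, Lyz2, the organic anion transporter Slco2b1 (0.74), Acta1, the nucleoside kinase Dck (0.68), the survival gene Bcl2l1 (0.67) and Bgn. Only Nppa and Bgn among them were called. Without replicate 2 of the 3-week shunt Dck was at 0.40 and Bcl2l1 at 0.41 (0.43 without replicate 3 of the 3-week sham), and the brightest Bcl2l1 probe set was at 0.01. The largest negative effects included values set by 1 array. Csn2, of a milk casein, read 8.92 and 5.59 in the 3-week shunt arrays against 9.15 and 8.93, and 8.94 and 8.97 at 8 weeks against 8.99 and 9.19. Its effect of -0.96 came from replicate 2 of the 3-week shunt, and the same array held the lowest values of Txnl1 (5.14 against 7.70 in its pair) and Lipf (5.59 against 7.56). Without it the effects of the 3 were -0.13, -0.36 and -0.08. Ptprs, a receptor phosphatase, was at -0.78 (0.03 on its brightest probe set), Rpl19l4 at -0.70, Padi2 at -0.51 (-0.15 without replicate 1 of the 8-week shunt), Plpp2 at -0.49 (-0.28 without replicate 3 of the 3-week sham and -0.31 without replicate 2 of the 3-week shunt) and Myh1, a skeletal myosin, at -0.47, and none was called. The brightest probe sets of Padi2, Plpp2, Txnl1 and Lipf were at -0.05, -0.10, -0.25 and 0.03.

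The effect at 8 weeks was compared with that at 3 weeks in the same fit, and no probe set was called (0 of 8740, 0.0%, with 467 or 5.34% at an unadjusted p under 0.05). More of the unadjusted differences were negative (368, 4.21%) than positive (99, 1.13%). The smallest p belonged to 1 probe set of Mapk9, of the stress kinase JNK2, at 9.28 and 9.34 against 9.00 and 9.05 at 3 weeks and 8.41 and 8.44 against 9.12 and 9.16 at 8 weeks. Here the shunt arrays were above their shams at 3 weeks and below them at 8 weeks, a difference of -1.0 ± 0.125 (adjusted p = 0.72, and 0.0459 without replicate 1 of the 3-week shunt), but the other 2 Mapk9 probe sets had differences of -0.05 and 0.28. Taf9b, of a general transcription factor, gave -1.35 ± 0.207 (adjusted p = 0.72). The 2 positive differences with the smallest p were of Prl8a7 (1.42) and Ptprc (1.38), neither called. That of Ptprc lay wholly at intensities under 64, being 0.00 with values raised to 64 and 0.98 after quantile normalization, and its brightest probe set was at -0.31. The brightest Prl8a7 probe set was at -0.16. Counted by week, 21.1% of genes were separated upward and 14.0% downward at 3 weeks, and 20.2% and 25.7% at 8 weeks.

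Pressure overload by aortic banding was the natural contrast. It had its own sham arrays and was sampled at 6, 12, 16 and 30 weeks, so the times differ from the 3 and 8 weeks of the shunt. The mean shunt effect minus the mean banding effect was called at 14 of 8740 probe sets (0.16%), 5 of them (0.0572%) higher and 9 (0.103%) lower in the shunt. After quantile normalization 18 were called, 11 higher and 7 lower, and only 11 of the 18 were among the 14. Of the 14 calls, 4 were kept in each of the 26 fits that leave out 1 array, those of Acta1, Csrp2, Acaa2 and 1 probe set of Akip1. Acta1 differed by -1.28 ± 0.204 (adjusted p = 0.00148), from 0.73 in the shunt against 2.02 under banding. Of the 4 Nppa probe sets 3 differed, by -1.09, -1.27 and -1.29 (adjusted p = 0.0237, 0.0312 and 0.0399), and the probe set with the largest shunt effect differed by -1.09 without a call (adjusted p = 0.215). The largest intensity was 31294 to 42377 on the shunt arrays and 32940 to 63872.5 on their shams. It was 29923 to 64884 on the arrays of banded hearts and 27718 to 64867 on their shams. The mean log2 maximum of the shunt arrays minus that of their shams was -0.58 at 3 weeks and -0.10 at 8 weeks. The part of these unequal maxima in the differences of Nppa and Acta1, both bright genes, was not tested. The 3 Nppa calls were lost in 4, 7 and 15 of the 26 fits, with differences between -0.92 and -1.52 throughout and adjusted p up to 0.110, 0.110 and 0.185. Csrp2, a LIM protein of smooth muscle, was at 0.09 in the shunt and 1.69 under banding, a difference of -1.61 ± 0.249 (adjusted p = 0.0014). For Akip1, of a protein that binds protein kinase A, 2 probe sets differed by -1.57 and -1.85 (adjusted p = 0.0014 and 0.0103), the second without a call when replicate 2 of the 3-week shunt was left out (0.058). Acaa2, the thiolase that ends mitochondrial fatty acid oxidation, was at -0.16 in the shunt and -0.95 under banding, a difference of 0.79 ± 0.146 (adjusted p = 0.0103). Nppb differed by -0.86 ± 0.223, which missed the threshold (adjusted p = 0.136). Against myocardial infarction, taken at 3 and 9 weeks, no probe set was called (0 of 8740, 0.0%, with 489 or 5.59% at an unadjusted p under 0.05), and the brightest Nppa probe set differed by -1.14 with a 95% interval from -1.63 to -0.64 (adjusted p = 0.16).

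**Figure D5:**
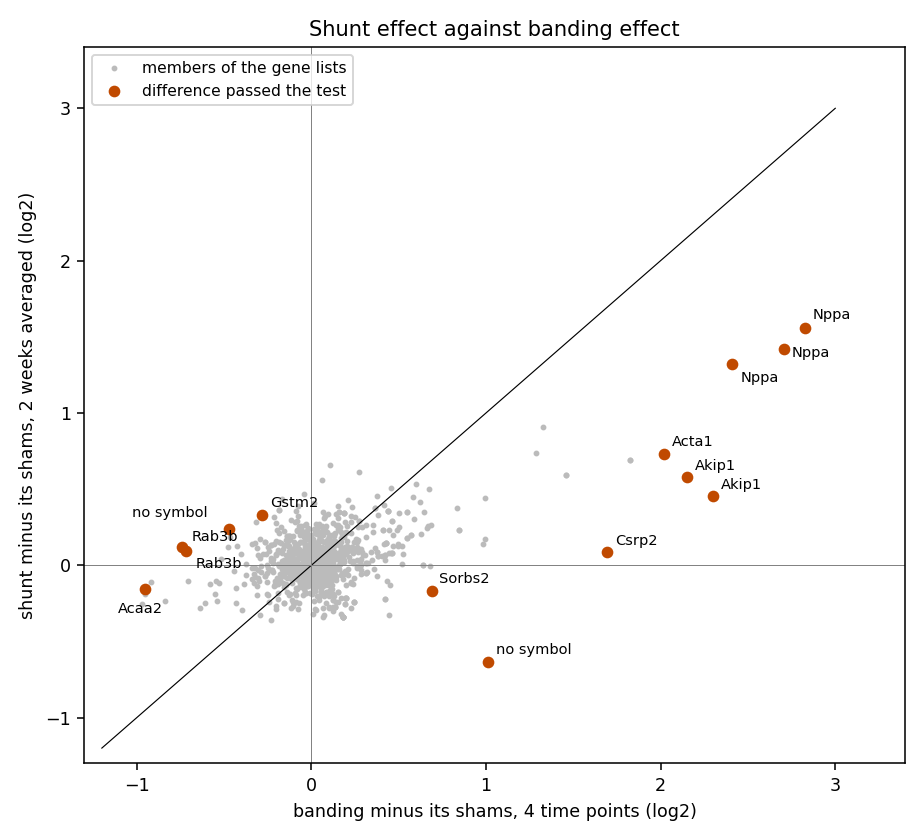
Mean effect of aortic banding over 4 time points (log2, horizontal) against the mean effect of the shunt over 2 weeks (log2, vertical), with the 14 probe sets whose difference was called as large points, members of the gene lists as grey points and the line of equal effects. Nppa, Acta1, Akip1 and Csrp2 lie below the line, with Acta1 at 2.02 under banding and 0.73 in the shunt, and Acaa2, Gstm2 and Rab3b lie above it.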

How the data were processed

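RNA from the left ventricle was hybridized to an Affymetrix rat expression array, 1 pool per array. The deposited values are linear intensities that the authors normalized between arrays with the invariant rank method of Li and Wong and summarised per probe set with the perfect match model of dChip, whose version is not given in the sources used here. Array intensities carry no count, and the number of arrays limits the precision. Here the intensities were raised to at least 16, log2 transformed and fitted with lmFit and eBayes of limma 3.58.1 (R 4.3.3) on the 8 arrays, with week as a block, or with a mean for each of 4 groups for each week apart and for the difference between weeks. Differences from banding and infarction were fitted over all 46 arrays with 20 group means. Of 8740 probe sets, 7006 had 1 gene symbol, 308 several and 1426 none in the platform annotation, and 6985 symbols were found in RefSeq. The brightest probe set stood for a gene in the lists. Named were called genes, the 8 separated genes with the highest and the 8 with the lowest effect at a mean intensity of at least 100, up to 2 extremes each way per list, the smallest p-values of each contrast (up to 8 called genes, otherwise 2 each way), and Nppa, Nppb, Acta1, Myh6, Myh7, Atp2a2, Col1a1 and Col3a1. Further list members and second probe sets were named after their values were seen. Members, lists and tests were chosen with earlier results of these data known. Alternatives were floors of 1 and 64, quantile normalization, a filter at a mean of 100, array weights, an intensity trend in the prior, 4 group means, the spread of all 46 arrays, a replicate block and leaving out each array. The counts without replicate 2 of the 3-week shunt, the crossed replicate block, the ranges of level and the count of probe sets at the array maximum were added after seeing the data. The fit of both weeks together was tested on simulated data, with a floor of 1. The other fits were not tested in this way. Tables were handled with Python 3.11.15, pandas 2.3.3 and numpy 2.4.6.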

Additional observations from a re-analysis of the deposited data

Results flagged for a closer look

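The following 14 probe sets were singled out because their shunt effect differed from their banding effect in a test of the difference itself (limma, adjusted p under 0.05 over 8740 probe sets, 0.16% called). After quantile normalization 11 of these 14 were called. The weeks sampled differ between the models, and the part of the weeks in these differences was not tested.

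Lower in the shunt than under banding were Akip1 (-1.57 ± 0.239, adjusted p = 0.0014, shunt 0.58 and banding 2.15, and on a second probe set -1.85 ± 0.337, adjusted p = 0.0103), Csrp2 (-1.61 ± 0.249, adjusted p = 0.0014) and Acta1 (-1.28 ± 0.204, adjusted p = 0.00148). The other 2 probe sets of Akip1 had shunt effects of -0.08 and -0.21. Nppa differed on 3 probe sets, by -1.09 ± 0.222, -1.27 ± 0.266 and -1.29 ± 0.275. A probe set with no symbol (rc_AA874873_g_at) differed by -1.65 ± 0.309, with the shunt at -0.63 and banding at 1.01. Sorbs2, of a sarcomere and adhesion adaptor, differed by -0.86 ± 0.163, while its other probe sets had shunt effects of 0.13 and 0.06.

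Higher in the shunt than under banding were Acaa2 (0.79 ± 0.146), the glutathione transferase Gstm2 (0.61 ± 0.12, shunt 0.33 and banding -0.28), the vesicle GTPase Rab3b on both probe sets (0.86 ± 0.172 and 0.81 ± 0.177) and a probe set with no symbol (S45663_g_at, 0.71 ± 0.154). Without 1 array at a time, the calls of Akip1 (1 probe set), Csrp2, Acta1 and Acaa2 were kept in all 26 fits. The other 10 were lost in 1 to 17 of them, Rab3b (0.81) and S45663_g_at in 17 each.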

How the results depend on the processing

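With both weeks together, 5 probe sets were called under each floor, after quantile normalization, with the filter and with 4 group means, 4 with the spread of all 46 arrays, 7 with array weights and 9 with an intensity trend, and 2 to 5 when 1 array was left out. At 3 weeks the 2 calls became 0 with array weights, 16 with the trend, 0 with the spread of all 46 arrays, and 0 to 450 when 1 array was left out, the 450 without replicate 1 of the 3-week shunt. At 8 weeks they became 9 with array weights, 5 with the trend, 4 with the spread of all 46 arrays and 0 to 19 when 1 array was left out. The difference between weeks gave 0 calls under each alternative that kept all 8 arrays, and 0 to 41 when 1 was left out. The 14 differences from banding became 9 with array weights and 18 after quantile normalization, and 6 to 170 when 1 array was left out (170 without replicate 1 of the 3-week shunt). Differences from infarction were 3 with array weights and 0 to 80 when 1 array was left out. Leaving out 1 of 2 arrays of a group assumes that the lone array varies like the others. Of the 14 differences from banding, 11 were also called after quantile normalization and 8 with array weights. The cause of the changes in these counts was not tested. Called genes, the separated genes with the highest and lowest effects, those with the smallest p-values of a contrast and those always named were checked under each alternative. Among these Myh7 turned sign, to 0.03 after quantile normalization, and the difference of Ptprc between weeks became 0.00 with the floor of 64. Genes named only as extremes of a list, and further list members, were recomputed only after quantile normalization and without replicate 2 of the 3-week shunt. Deviations of same-numbered arrays at 3 and 8 weeks correlated at -0.107 for the shunt and -0.0231 for the sham. With 2 arrays per group this is 1 correlation each, so it cannot settle whether the array numbers pair the samples. A link of shunt with sham arrays within a week was not tested. With the replicate block the difference between weeks had 0 calls (355 unadjusted, against 467), and with the shunt numbers crossed 0 (472 unadjusted). Effects of probe sets at the array maximum, with 2 arrays per group, cannot be resolved.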
